A study of Mus musculus with 9 samples.

Results

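The regions described here are the places on liver RNA where Argonaute (AGO), the protein that carries microRNAs, was found over a seed match of the miR-30 family. A region was taken when the deposited matrix gave it a match of miR-30a/b/c/d/e-5p and none of miR-122-5p, in either of the classes under which the matrix lists miR-122-5p. This rule used sequence matches and no measured level. It gave 4697 of 92645 regions, with 4781 miR-30 matches, and 81 regions held 2 or more. They lay in 3091 named genes, 666 had no gene name in the files, and 92.0% were 70 bases wide.

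The livers came from mice aged 6 weeks. One group was 4 mice labelled KO for miR-122 (replicate 1 female, replicates 2 to 4 male), and the other was 5 littermates that carried the floxed allele and were labelled wild type (replicates 1 to 3 female, 4 and 5 male), called controls here. Each library was from 1 mouse; the sources used here do not say how the floxed allele was deleted, or in which cells. AGO complexes were pulled down from crosslinked whole liver with a pan-AGO antibody, so the counts are over all AGO proteins and all cell types of the organ, and fewer cells of a type and less RNA per cell cannot be told apart. RNA levels were not analysed here, so a change in AGO-bound counts may be one of binding or of the amount of the RNA.

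MicroRNAs are short RNAs that guide AGO to messenger RNAs, mostly by pairing their seed, the bases near the 5' end, with a match in the message, which is then translated less or degraded faster. The miR-30 family is made from hairpins at several loci, is found in many tissues and is abundant in hepatocytes. It has been reported to act on transcripts of cell adhesion, of TGF-beta signalling, of lipoprotein secretion and of the silencing machinery itself. In the liver, miR-122 is the dominant microRNA of hepatocytes, and its loss leaves AGO without its most frequent partner there.

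The mature sequences, from RefSeq (GRCm38.p6), show what the members of the family share and what they do not. Capitals mark the seed, bases 2 to 8; the table used held no entry for miR-30b-5p and miR-30d-5p.

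miR-30a-5p: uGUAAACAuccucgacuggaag

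miR-30c-5p: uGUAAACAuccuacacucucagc

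miR-30e-5p: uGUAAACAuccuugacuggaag

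All 3 carry the seed GUAAACA and share their first 12 bases. Counted from the 5' end, miR-30e-5p differs from miR-30a-5p by 1 base of 22, C13U, and miR-30c-5p by 5, C13A, G14C, G18C, G19U and A20C. On the target, the shortest match is the 6mer GTTTAC, the 7mer-m8 is TGTTTAC, and the 8mer is TGTTTACA, which adds the A that faces the first base of the microRNA. The 7mer-A1 has that A without the eighth pair. Matches are written as the DNA of the target strand, and since the seed is shared, a region cannot be given to 1 member of the family by its match.

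The longest match was the most frequent. An 8mer was held by 1695 regions (36.1%), a 7mer-m8 by 1342, a 7mer-A1 by 809 and a 6mer alone by 851. Over all matches of a family, regions with a miR-122 match included, the 8mer share of miR-30 was 35.2%, above that of each of the other families among the 31 in the matrix. The next were the additional class of miR-122-5p with 29.0% and let-7 with 27.3%. These shares are descriptions of 1 set of regions called over these libraries and have no replicate error.

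The miR-30 match lay just past the centre of the region. Its centre was a median of 4 bases from the region's centre toward the 3' end of the transcript for the 8mer and the 7mer-m8, 3 for the 7mer-A1 and 2 for the 6mer. The share of regions with the match within 10 bases of the centre was 75.3% for the 8mer, 68.7% for the 7mer-m8, 59.6% for the 7mer-A1 and 53.0% for the 6mer, so the spread widened as the match got shorter.

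**Figure D1:**
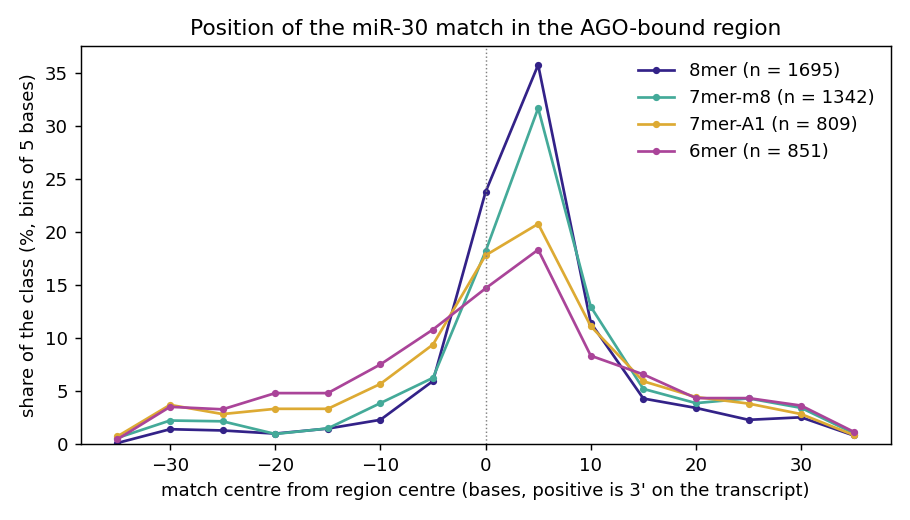
Distance of the miR-30 match from the centre of its AGO-bound region, in bases, as the share of each site class in bins of 5 bases; lines are the 4 site classes and n is the number of regions. All classes peak just to the 3' side of the centre, and the share within 10 bases falls from 75.3% for the 8mer to 53.0% for the 6mer.

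Matches of other families stood in 2222 of the regions, and 2475 held none but miR-30. In the 2222, which include regions named below, the counts cannot be given to miR-30 alone. The most frequent partner was miR-101, in 313 regions (6.66%), followed by let-7 in 195 and miR-27 in 189. Some of these matches share bases with the miR-30 match, in 401 pairs over 375 regions. Overlaps were laid out for miR-101, let-7 and miR-26 alone, and those of other families were not ranked. The 4 most frequent among these follow as joined 6mers, on the target strand, with the shared bases in capitals.

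miR-30 then miR-101: gttTACtgt

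miR-30 then let-7: gttTACctc

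miR-101 then miR-30: tactGTttac

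miR-30 then miR-26: gtttACttga

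They occurred at 116, 85, 61 and 39 sites. The mature sequences that pair there are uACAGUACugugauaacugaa (miR-101a-3p), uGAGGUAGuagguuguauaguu (let-7a-5p) and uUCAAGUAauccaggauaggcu (miR-26a-5p), with seeds in capitals. At such a site only 1 of the microRNAs can pair in full at a time, and the counts do not say which of them was bound.

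The counts were compared between KO and control with edgeR's quasi-likelihood test, with genotype and sex as terms and Benjamini-Hochberg adjustment over all regions tested. Levels are given as scaled CPM, counts scaled to a common library size with TMM factors, which sets libraries on a scale shared by most regions. Library totals ran from 445912 to 1170130 counts, and 1431 of the 4697 regions had enough counts to be tested; the other 3266 held 16.6% of the counts over the family's regions. Of all 17182 regions tested, 27.6% were lower and 17.5% higher in KO, and of the 13915 with no match of miR-122 the lower made up 13.2% and the higher 21.3%. Among the 1431 miR-30 regions, 82 (5.73%) were lower and 292 (20.4%) higher. The share that rose was near that of regions without a miR-122 match, and the share that fell was under it. The filter asked for at least 9.94 CPM in 4 libraries, and 140 of the 292 rises reached this in fewer than 4 controls and 52 of the 82 falls in fewer than 4 KO libraries; regions let in by the high group alone had their direction fixed by the filter. The median log2 fold, KO over control, was 0.36, with quartiles of -0.07 and 0.80, beside 0.26 for all regions without a miR-122 match and 0.03 for all regions. For the 2 other families set beside it, let-7 had 137 lower and 292 higher of 1658 (median 0.25) and miR-26 had 50 lower and 213 higher of 927 (median 0.46).

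The size of this shift depended on the scaling. With factors taken only from regions without a miR-122 match, the median of the miR-30 regions was 0.14 and that of the background 0.04, with 117 lower and 171 higher. With upper quartile factors the medians were 0.60 and 0.50, with 52 lower and 463 higher. The rises thus made up 78.1% of the calls in the main fit, 59.4% with the first alternative and 89.9% with the second. With no filter on low counts the order turned, at 0.33 for the miR-30 regions and 0.41 for the background. Leaving out control replicate 4 gave 52 lower and 176 higher. None of the 374 regions called in the main fit changed its direction under any alternative tried in which it was tested.

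**Figure D2:**
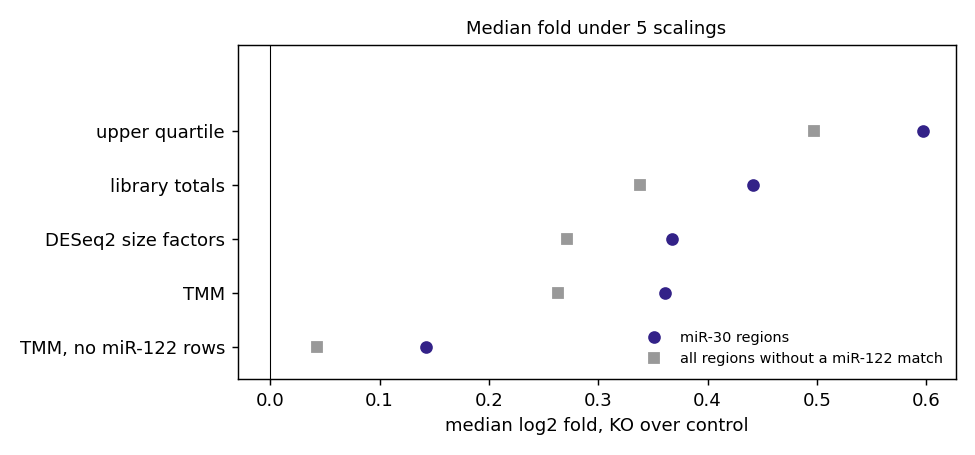
Median log2 fold, KO over control, of the tested miR-30 regions (circles) and of all tested regions without a miR-122 match (squares) under 5 ways of scaling the libraries. The miR-30 median runs from 0.14 to 0.60 and lies to the right of the background in each of these 5, by a smaller distance than the scalings differ.

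The share of a library's counts that fell in miR-30 regions was 6.59%, 6.73%, 6.55%, 6.58% and 5.92% in controls 1 to 5 and 9.18%, 8.56%, 9.22% and 6.12% in KO 1 to 4. KO 1 to 3 lay above all controls, and KO 4 lay within their range. The means were 6.47% ± 0.317 (SD, n = 5) and 8.27% ± 1.47 (SD, n = 4), a ratio of 1.28, or 1.39 without KO replicate 4. Regions without a miR-122 match held 75.0% ± 1.38 of all counts in controls and 95.6% ± 0.450 in KO, so the share was also taken over their counts. It was then 8.91%, 8.75%, 8.85%, 8.87% and 7.79% in controls and 9.66%, 8.93%, 9.61% and 6.41% in KO. On that base the means were 8.63% ± 0.477 and 8.65% ± 1.53, a ratio of 1.00, and without KO replicate 4 the KO mean was 9.40% ± 0.410 (SD, n = 3), a ratio of 1.09. No p is given for these sums over the family.

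**Figure D3:**
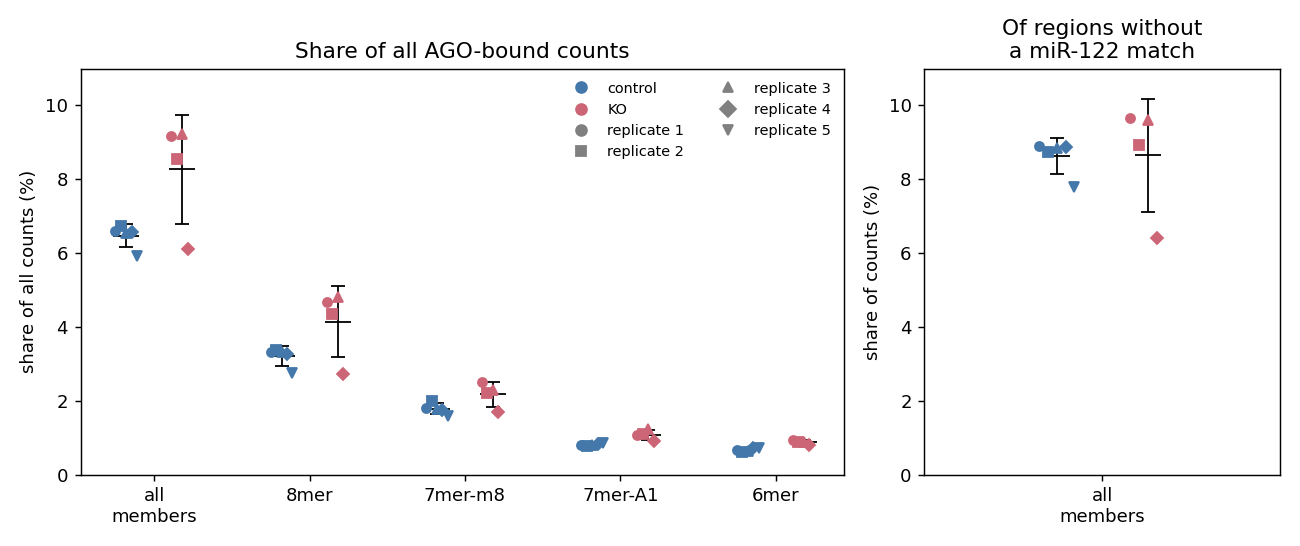
Share of each library's counts in miR-30 regions, in percent, for all regions and by site class (left) and over the counts of regions without a miR-122 match (right); points are libraries, bars the mean and SD of 5 control and 4 KO libraries. KO replicates 1 to 3 lie above the controls on the left (8.56% to 9.22% against 5.92% to 6.73%) and KO replicate 4 does not (6.12%); on the right the means are 8.63% and 8.65%.

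KO replicate 4 stood apart in a second way. The 23 neuronal marker genes, 21 of them with a region, summed to between 45.6 and 50.1 scaled CPM in controls, to 1768, 2066 and 2381 in KO 1 to 3 and to 9867 in KO 4, and 6 of them were at 0 in all controls. Hepatocyte markers summed to between 28780 and 39709 in controls and 19810 and 23178 in KO, and stellate cell markers to 661 to 813 and 1391 to 1835. Markers of Kupffer cells (303 to 359 and 370 to 531), cholangiocytes (13.4 to 39.5 and 69.6 to 108), endothelium (455 to 510 and 268 to 447) and red cells (8539 to 13392 and 11249 to 24144) also moved. The labelled liver thus had its defining hepatocyte markers in every library, and the part of the other markers in the results for miR-30 regions was not tested. Of the 292 regions that rose, 24 were over 3 times higher in KO 4 than in KO 1 to 3 on average, and 190 were lower in KO 4 than in that mean. The level in KO 4 was a median of 0.84 times that mean over the rises and 0.82 times over all tested miR-30 regions. The count of 190 thus goes with the level of that library over the family's regions. Without KO 4, 280 of the 292 rises and 78 of the 82 falls were still called.

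By site class, the 8mer regions were the best covered, with 39.9% of them tested against 31.1% of the 7mer-m8, 22.0% of the 7mer-A1 and 18.8% of the 6mer regions. Of the tested 8mer regions 31 were lower and 149 higher, with a median log2 fold of 0.41. For the 7mer-m8 these were 19, 76 and 0.33, for the 7mer-A1 13, 32 and 0.20, and for the 6mer 19, 35 and 0.34. The medians did not follow the length of the match from class to class. Falls were 4.59% of tested 8mer regions and 11.9% of tested 6mer regions. The 8mer regions took 3.21% ± 0.262 of the control counts (SD, n = 5) and 4.14% ± 0.966 of those in KO (SD, n = 4), close to the share of the other 3 classes together, and their ratio of 1.29 was near the 1.30 of the 6mer regions.

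The medians spread wider by position in the transcript than by site class. In 3' UTRs, where microRNAs act most, 2154 regions lay, of which 829 were tested, with 33 lower, 207 higher and a median log2 fold of 0.46. In coding sequence 338 of 1086 were tested, with 40 lower, 35 higher and a median of 0.09. The same split ran through the regions with neither a miR-30 nor a miR-122 match, whose median was 0.55 in 3' UTRs and -0.05 in coding sequence. Of tested 3' UTR regions 3.98% of the miR-30 regions and 8.24% of those others were lower, and 25.0% and 32.2% were higher. In coding sequence 11.8% and 20.6% were lower, and 10.4% and 9.64% higher. Set against the counts of 3' UTR regions without a miR-122 match alone, the 3' UTR regions of the family took 15.4% ± 0.851 in controls and 13.9% ± 2.56 in KO, or 15.1% ± 0.675 without KO replicate 4 (SD, n = 3).

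**Figure D4:**
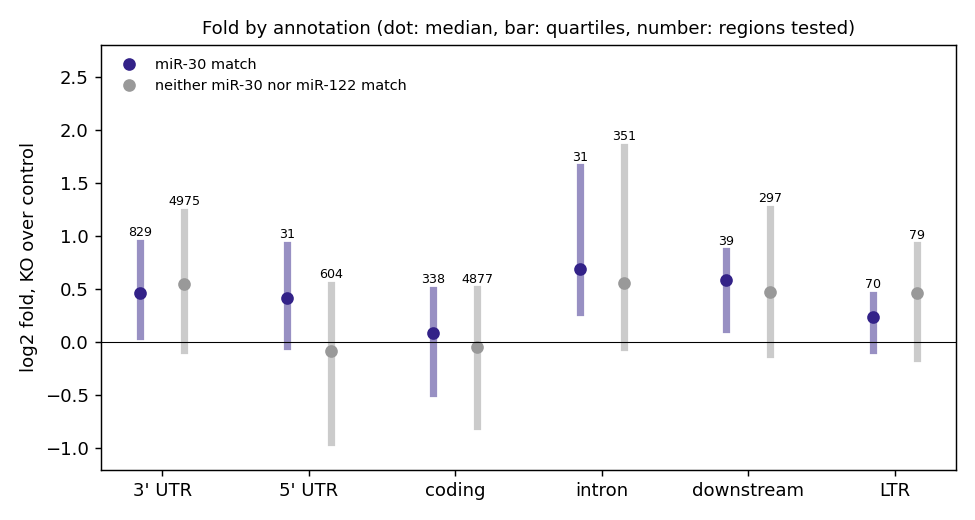
Log2 fold, KO over control, of tested regions with a miR-30 match (dark) and of those with neither a miR-30 nor a miR-122 match (grey), by annotation; dots are medians, bars run from the lower to the upper quartile, and numbers are regions tested. The medians of 3' UTR regions, 0.46 and 0.55, lie above those of coding regions, 0.09 and -0.05, for both kinds.

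In the other annotation classes fewer regions were tested. In 5' UTRs 31 of 112 miR-30 regions were tested, with 2 lower, 9 higher and a median of 0.42, where the other 604 regions there had 142 lower, 74 higher and a median of -0.08. The 2 falls, named after their values were seen, were in Sqle, the squalene epoxidase of cholesterol synthesis (26.5 ± 8.96 and 5.27 ± 2.29 scaled CPM; log2 -1.94, adjusted p = 0.00064), and Aldh1l1, an enzyme of folate metabolism (log2 -1.43, adjusted p = 0.045), whose call was lost without KO replicate 1 or 2 (adjusted p up to 0.38). Both KO means lay under the level of the count filter (4.39 ± 2.10 for Aldh1l1). Both regions were thus tested because controls were high, which fixed the direction. Introns held 477 miR-30 regions, of which 31 were tested (1 lower, 11 higher, median 0.69). The rises were 35.5% of these, near the 34.2% of the 351 other intron regions tested (27 lower, 120 higher, median 0.55). The fall among the miR-30 regions was in N4bp2l1 (log2 -1.09, adjusted p = 0.025). It was lost without control replicate 4 or any 1 of KO replicates 1 to 3 (adjusted p up to 0.20). In LTR repeats, remnants of retroviruses, 259 regions lay, and 27.0% of them were tested against 7.31% of the other LTR regions. Of the 79 other LTR regions tested, 5 were lower and 17 higher. Only 2 of the 70 tested miR-30 regions in LTR repeats were called, both higher and without a gene name, on chromosomes 7 and 18 (log2 0.97 and 0.82, adjusted p = 0.037 and 0.034). Each call was lost without any 1 of 5 libraries, which for both include control replicates 1, 3 and 4 and KO replicate 1, and further control replicate 5 on chromosome 18 and KO replicate 4 on chromosome 7 (adjusted p up to 0.24). Of the 259 regions, 84.6% held the match within 10 bases of the centre, against 66.7% of all miR-30 regions. Reads from near-identical copies of a repeat may be placed at any of them, and the sources used here give no counting rule, so single LTR regions are uncertain.

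The regions were also split by the conservation of the match. The authors' deposited phyloP score, which is positive for bases that change slowly between species, was above 2 at the match of 1061 regions, and 47.3% of these were tested, against 18.7% of the 691 regions at or under 0. The most conserved had 17 lower and 134 higher of 502 (3.39% and 26.7%), with a median log2 fold of 0.49. Of all tested miR-30 regions 5.73% were lower and 20.4% higher. Regions at or under 0 had 12 lower and 30 higher of 129 (9.30% and 23.3%), with a median of 0.40. The bands between had medians of 0.25 and 0.29, with 17.9% and 16.9% higher. This split was not set against annotation, by which the medians also differed. Regions with no match of another family (40 lower and 132 higher of 701, 5.71% and 18.8%, median 0.37) and those with one (42 and 160 of 730, 5.75% and 21.9%, median 0.36) were alike in median. Among regions where a match of another family overlapped the miR-30 match, the medians were 0.55 for miR-101 ahead of miR-30 (0 lower and 9 higher of 26), 0.34 for miR-101 behind it (4 and 8 of 30), 0.89 for let-7 (2 and 7 of 19) and 0.40 for miR-26 (0 and 2 of 16). These are small sets of 16 to 30 tested regions. Their medians stand beside 0.36, and their calls beside 5.73% lower and 20.4% higher, for all tested miR-30 regions.

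The most heavily bound miR-30 regions in control liver lay in a mixed set of transcripts. Psen2, the catalytic subunit of a gamma-secretase, had a 7mer-m8 in its 3' UTR (mm10, chr1:180227388-180227457) at 843 ± 209 in controls (SD, n = 5) and 718 ± 155 in KO (SD, n = 4). Rgn, a calcium-binding lactonase of the liver, had an 8mer at the centre of a coding region at 755 ± 328 and 618 ± 179. Neither passed the test (log2 -0.12 and 0.06, adjusted p = 0.73 and 0.87). Group means are not adjusted for sex, while the fitted log2 folds are. The direction of the means and of the fold can thus differ, as for Rgn here and for Sec23a and Abat below.

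Also among the highest were mt-Nd4, a subunit of respiratory complex I (791 ± 194 and 1168 ± 209; adjusted p = 0.19), and a LINE repeat on chromosome 2 (847 ± 209 and 1190 ± 255). The counts of the LINE region were 0.943 to 1.16 times those of mt-Nd4 in every library, so a near-identical copy is possible and both levels are uncertain. A repeat-annotated RNA on chromosome 6 stood at 812 ± 280 and 1009 ± 267 (adjusted p = 0.61).

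Of these regions, 2 passed the test, in opposite directions. In mt-Rnr2, the large ribosomal RNA of mitochondria, the level was 396, 366, 490, 472 and 727 in controls and 1077, 980, 710 and 1319 in KO, with an overlap between control 5 and KO 3 (log2 fold 0.99, SE 0.27, adjusted p = 0.0055). Its call was lost without KO replicate 1 (log2 0.77, adjusted p = 0.083), and its match lay 29 bases upstream of the centre. In Cyp2c70, the cytochrome P450 that makes the muricholic bile acids of mice, the level was 491, 404, 694, 720 and 1167 in controls and 444, 293, 169 and 143 in KO, where only KO 1 reached the controls (log2 fold -1.40, SE 0.37, adjusted p = 0.0048). Its call was lost with replicate number as a block (adjusted p = 0.0503). The Cyp2c genes are near copies of each other, so the counts of Cyp2c70 are uncertain.

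Among 8mer sites in 3' UTRs, most of the strongest stayed within the spread of the libraries. Sec23a, part of the COPII coat that carries proteins out of the endoplasmic reticulum, had 2 matches and stood at 639 ± 224 in controls and 595 ± 215 in KO (log2 fold 0.10, adjusted p = 0.80). Ddx5, an RNA helicase that assists microRNA processing, stood at 468 ± 59.5 and 481 ± 76.8 (log2 0.11). Nedd4, a ubiquitin ligase, stood at 380 ± 71.7 and 478 ± 114 (log2 0.17), and Abat, the GABA transaminase, at 394 ± 48.3 and 378 ± 70.8 (log2 0.02). These 4 values, as those of Psen2 and Rgn, changed sign under at least 1 alternative. Lpgat1, an acyltransferase of phosphatidylglycerol (log2 -0.27), and Tor1b, a torsin (log2 0.42), did not pass either.

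Lifr and Elovl5 were the exceptions. Lifr, the receptor of leukaemia inhibitory factor, had its region (chr15:7196731-7196800) at 265, 250, 290, 328 and 219 scaled CPM in controls and 406, 486, 556 and 368 in KO. The region also held matches of miR-101 and miR-27. No KO library reached down to a control, and the log2 fold was 0.71 (SE 0.24, adjusted p = 0.024). The call was lost without control replicate 1, 3 or 5 (adjusted p from 0.052 to 0.099), with factors from regions without a miR-122 match (adjusted p = 0.11) and with no filter on low counts (0.12). With replicate number as a block it was lost too (adjusted p = 0.56). Elovl5, an elongase of polyunsaturated fatty acids, had its region (chr9:77984277-77984346) at 577, 439, 399, 348 and 231 in controls and 198, 240, 183 and 125 in KO. The groups overlapped only by KO 2 and control 5 (log2 fold -0.88, SE 0.28, adjusted p = 0.018), and the call was lost without control replicate 4 or KO replicate 1 (adjusted p = 0.072 and 0.15) and with upper quartile factors (adjusted p = 0.076).

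A list of 85 genes reported as miR-30 targets elsewhere put these regions beside known biology. Of them 55 had a miR-30 region, 93 regions in all, and of 50 tested regions in 35 genes 13 were higher and 2 lower, with a median log2 fold of 0.57, beside 0.36 for all tested miR-30 regions. These are 26% and 4.00%, beside 20.4% and 5.73% of all tested miR-30 regions and 17.5% and 27.6% of all regions. Gnai2, the inhibitory G protein subunit alpha, had an 8mer (chr9:107614689-107614758) at 98.8, 87.0, 144, 102 and 104 scaled CPM in controls and 218, 225, 214 and 231 in KO. All KO libraries lay well above all controls, at a log2 fold of 1.06 (SE 0.24, adjusted p = 0.0013). Ctgf, a matrix protein induced by TGF-beta, had a 7mer-A1 at 9.81 ± 1.48 in controls and 31.4 ± 5.26 in KO (log2 1.62, SE 0.34, adjusted p = 0.00077). Its region also held a miR-26 match. Skp2, the substrate receptor of a ubiquitin ligase of the cell cycle, rose from 4.41 ± 2.50 to 19.9 ± 3.77 (log2 2.07, SE 0.43, adjusted p = 0.00082). In both genes the groups did not overlap. The Skp2 call was lost with replicate number as a block (adjusted p = 0.052). Skp2 controls held 21 counts in all and reached the level of the count filter in no library, as did those of Fndc3b, so both were tested because KO was high, which fixed the direction. Ctgf reached that level in 2 control libraries and in 4 KO libraries. Stellate cell markers, which include matrix genes, were higher in every KO library than in every control, as given above, and their part in these rises was not tested.

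Further rises in this list follow. Smad1, a transducer of BMP signals, rose from 79.9 ± 14.4 to 138 ± 43.3 (log2 0.91, adjusted p = 0.0049), and lost its call without KO replicate 1 (adjusted p = 0.078). It also lost it with replicate number as a block (adjusted p = 0.087). The Smad1 region held matches of miR-26 and miR-27 too, and its miR-30 match lay 40.5 bases downstream of the centre. Pik3cd, a catalytic subunit of phosphoinositide 3-kinase, rose from 6.40 ± 3.90 to 18.3 ± 8.40 (log2 1.88, adjusted p = 0.0027). Its region reached the level of the count filter in 1 control library and in 3 KO libraries. The call was lost with replicate number as a block (log2 1.25, adjusted p = 0.23). Fndc3b rose by a log2 fold of 1.28 (adjusted p = 0.032) and lost its call without control replicate 1 (adjusted p = 0.065). Twf1, an actin-binding twinfilin (log2 0.75, adjusted p = 0.046), and Galnt1, an enzyme that starts O-linked glycosylation (log2 0.81, adjusted p = 0.037), had overlapping groups, and each lost its call without any 1 of control replicates 1, 3 and 5 and KO replicates 1 and 3, with adjusted p up to 0.23 and 0.38. Twf1, Galnt1 and Fndc3b also lost theirs with factors from regions without a miR-122 match (adjusted p = 0.16, 0.13 and 0.078) and with no filter on low counts (0.16, 0.12 and 0.080).

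**Figure D5:**
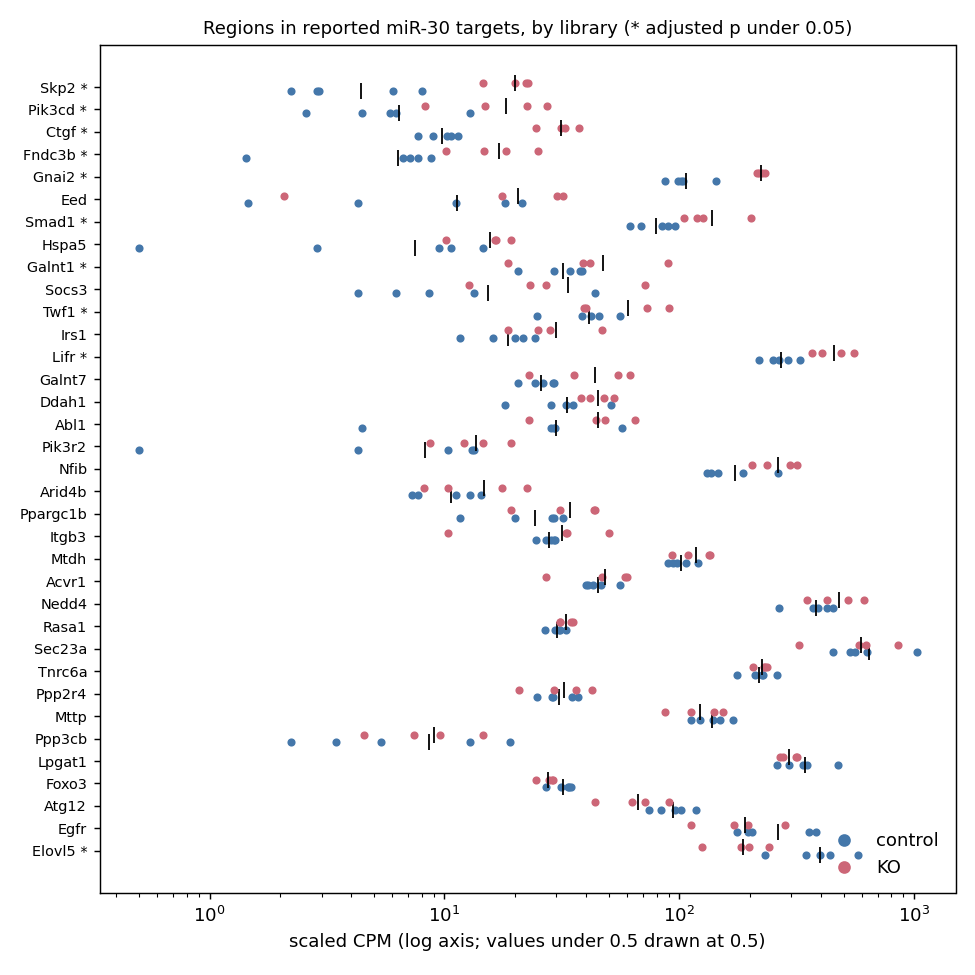
Scaled CPM per library, on a log axis, of the most covered tested miR-30 region in each of 35 genes reported as targets of the family; blue points are 5 controls, red points 4 KO libraries, ticks group means, and an asterisk marks an adjusted p under 0.05. Genes are ordered by log2 fold from Elovl5 (-0.88) to Skp2 (2.07), and the groups lie apart in Gnai2, Ctgf, Skp2, Lifr, Smad1 and Fndc3b, while they overlap in most others.

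Mttp, the transfer protein that loads lipid onto lipoproteins, is a reported hepatic target of the family, and its 8mer region stood at 149, 123, 139, 169 and 113 scaled CPM in controls and 112, 140, 153 and 87.2 in KO. These ranges overlapped widely (log2 fold -0.20, SE 0.25, adjusted p = 0.55), and the value turned to 0.04 with upper quartile factors. Foxo3, a transcription factor of stress responses (log2 -0.28), and Atg12, a ubiquitin-like protein of autophagy (log2 -0.48), did not pass either.

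Tnrc6a encodes GW182, the scaffold that AGO uses to silence its targets, and it held 4 miR-30 regions, all tested. The most covered, a 7mer-m8 in the 3' UTR, stood at 219 ± 30.7 in controls and 226 ± 13.7 in KO (log2 0.05, adjusted p = 0.88; -0.17 with factors from regions without a miR-122 match). Its miR-30 match lay 35 bases downstream of the centre, and the region held matches of 5 other families. The other regions of this gene and of Tnrc6c, Nfib, Egfr and the lipid and ubiquitin genes named below were picked after their values were seen. An 8mer about 1 kilobase downstream (chr7:123194438-123194507) stood at 54.4, 75.8, 82.1, 77.4 and 62.9 in controls and 185, 151, 148 and 99.7 in KO. All KO libraries lay above all controls there (log2 1.11, SE 0.25, adjusted p = 0.0014). The call was lost with replicate number as a block (adjusted p = 0.081), and the region also held matches of miR-192 and miR-23. A region with 2 matches (38.8 ± 11.9 and 64.0 ± 7.13; log2 0.67, adjusted p = 0.072) and one in coding sequence (9.25 ± 3.74 and 18.7 ± 5.52; log2 0.99, adjusted p = 0.067) did not pass. In its paralog Tnrc6c a 7mer-m8 rose from 25.9 ± 7.33 to 46.8 ± 7.83 (log2 0.79, adjusted p = 0.038), a call lost without any 1 of 5 libraries (control replicates 1, 3 and 5 and KO replicates 1 and 3; adjusted p up to 0.13), with factors from regions without a miR-122 match (0.13) and with no filter on low counts (0.17), and an 8mer nearby had a log2 fold of 0.41 (adjusted p = 0.31). In a list of 27 genes of the silencing machinery, 14 miR-30 regions in 8 genes were tested, and these 2 calls were the ones made, 14.3% beside 20.4% of all tested miR-30 regions, with a median log2 fold of 0.61. Regions of 1 transcript share its abundance and are not replicates.

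Nfib, a transcription factor of the NFI family, had a 7mer-m8 region at 172 ± 54.6 in controls and 264 ± 52.6 in KO that did not pass (log2 0.56, adjusted p = 0.085), and a less covered one at 10.1 ± 6.42 and 26.4 ± 8.45 that did (log2 1.29, adjusted p = 0.035). The second call was lost without any 1 of control replicates 1, 4 and 5 and KO replicates 1 and 3 (adjusted p up to 0.12) and with factors from regions without a miR-122 match (adjusted p = 0.079). That less covered region reached the level of the count filter in 3 control and 4 KO libraries.

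Egfr, the epidermal growth factor receptor, held more miR-30 regions than any other gene, 9 in all. Of these 7 were intronic and untested, 6 of them with an 8mer; their summed counts were 16, 5, 28, 9 and 21 in controls and 7, 21, 88 and 26 in KO. A 3' UTR region with a 6mer (chr11:16912480-16912549) fell from 16.3 ± 9.34 to 6.40 ± 3.45 scaled CPM, with overlapping groups (log2 -1.77, SE 0.47, adjusted p = 0.0050). That region reached the level of the count filter in 3 control libraries and 1 KO library. One with an 8mer (chr11:16915559-16915628), which the files name Egfr but which lies past the end of that gene in the reference table, stood at 263 ± 98.2 and 190 ± 70.1 (log2 -0.61, adjusted p = 0.082). With factors from regions without a miR-122 match this region passed (log2 -0.84, adjusted p = 0.020), as it did without KO replicate 1 (adjusted p = 0.0495).

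Of 20 tested miR-30 regions in a list of 30 genes of lipoproteins and lipid enzymes, 5 were lower and none higher, with a median log2 fold of -0.16. The 5 falls are 25.0% of those tested, beside 5.73% of all tested miR-30 regions, 13.2% of regions without a miR-122 match and 27.6% of all regions. They were those in Elovl5, given above, in Apob, Apoc3, Acaca and Insig1. In Apoc3, an apolipoprotein that slows lipolysis, a coding region with a 6mer fell from 150 ± 40.0 to 45.1 ± 11.2 scaled CPM (log2 -1.56, SE 0.28, adjusted p = 0.00018). In Acaca, the acetyl-CoA carboxylase that starts fatty acid synthesis, a coding region with a 7mer-A1 fell from 25.6 ± 5.42 to 7.96 ± 3.99 (log2 -1.56, SE 0.39, adjusted p = 0.0035). The Acaca call was lost with replicate number as a block (adjusted p = 0.088). In Insig1, a regulator of sterol sensing, a coding region fell from 27.3 ± 11.1 to 10.7 ± 7.56 (log2 -1.02, adjusted p = 0.032), a call lost without control replicate 4 or KO replicate 2 or 3 (adjusted p from 0.098 to 0.18) and with upper quartile factors (adjusted p = 0.092). The Acaca region reached the level of the count filter in 5 control and 2 KO libraries, and the Insig1 region in 5 and 1. Both were thus tested because controls were high, which fixed the direction. Hepatocyte marker sums, given above, were lower in every KO library than in every control, and their part in these falls was not tested.

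Apob, the main protein of secreted lipoproteins and itself a hepatocyte marker, had its 4 most covered miR-30 regions in coding sequence, each with a 7mer-A1. One (chr12:8012852-8013109) stood at 199, 172, 207, 230 and 272 in controls and 108, 90.0, 92.9 and 83.1 in KO, with no overlap (log2 -1.23, SE 0.23, adjusted p = 0.00033); it is wider than most, and its match lies 92 bases upstream of the centre. The 3 others stood at 387 ± 98.5 and 417 ± 107, 108 ± 40.6 and 170 ± 16.9, and 106 ± 39.9 and 117 ± 46.8, and none passed. One transcript thus held a region that fell beside regions that did not pass.

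Of 34 genes of ubiquitin and SUMO enzymes, 10 miR-30 regions in 9 genes were tested, with 2 higher (20.0%, beside 20.4% of all tested miR-30 regions), none lower and a median of 0.68. Ube2j1, a conjugating enzyme of the endoplasmic reticulum, rose from 28.2 ± 8.37 to 52.0 ± 7.73 (log2 0.95, adjusted p = 0.014), and Usp48, a deubiquitinase, from 6.99 ± 1.67 to 17.8 ± 7.93 (log2 1.26, adjusted p = 0.024), at a 3' UTR region that reached the level of the count filter in no control library. A better covered region in the coding sequence of Usp48 stood at 22.8 ± 5.66 and 21.4 ± 7.18 and did not pass (log2 -0.10, adjusted p = 0.84). Ube2j1 lost its call without control replicate 5 (adjusted p = 0.063) and Usp48 without control replicate 1 (adjusted p = 0.061). Both lost it with factors from regions without a miR-122 match (adjusted p = 0.053 and 0.062) and with no filter on low counts (0.067 and 0.074).

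The 8 falls with the smallest p-values, among regions with at least 3 counts in each group, lay in 6 named genes and 2 regions without a gene name. Man2a1, a mannosidase of the Golgi, had a coding region with a 6mer (chr17:64733746-64733815) at 127, 105, 213, 213 and 287 scaled CPM in controls and 34.6, 16.7, 20.0 and 8.31 in KO. Every KO library lay below every control (log2 -3.19, SE 0.38, adjusted p = 4.0e-06). Gldc, the decarboxylase of the glycine cleavage system, fell from 223 ± 38.8 to 68.5 ± 16.4 (log2 -1.62), and Me1, the cytosolic malic enzyme that supplies NADPH, from 129 ± 52.3 to 24.0 ± 3.20 (log2 -2.51), both at 8mers in the 3' UTR. Brwd1, a bromodomain protein of chromatin, fell from 77.8 ± 20.8 to 13.5 ± 5.07 (log2 -2.61), and Ak4, a mitochondrial adenylate kinase, from 39.4 ± 9.95 to 4.19 ± 0.417 (log2 -3.06). Slco1a1, an uptake transporter of organic anions with close paralogs, fell from 93.5 ± 68.0 to 17.7 ± 12.4 with an overlap of the groups (log2 -3.01) and is uncertain for its near copies. The largest of these falls was in a region on chromosome 1 without a gene name in the files (chr1:161747411-161747480), from 75.3 ± 20.9 to 3.86 ± 3.47 (log2 -4.64, SE 0.51, adjusted p = 1.7e-06). A region on chromosome 18 without a gene name in the files went from 51.1 ± 26.7 to 3.16 ± 2.29 (log2 -3.33). By position in RefSeq, with strand not compared, the first of these overlaps Gm5049 and the second Gata6os. All but Gldc and Me1 of these 8 reached the level of the count filter in fewer than 4 KO libraries, and Ak4 and both unnamed regions in none. In Man2a1 the match lay 9 bases upstream of the centre, and in Ak4 32 bases upstream. In Gldc it lay 64 bases downstream, at the edge of a region wider than most (chr19:30098578-30098711), and in the chromosome 1 region 32 bases downstream.

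The 8 rises with the smallest p-values lay in 6 genes, a pseudogene and a region without a gene name. In Igf2, a fetal growth factor, a 3' UTR region with a 6mer (chr7:142651402-142651471) stood at 0, 4.46, 0.892, 4.30 and 19.0 scaled CPM in controls and 336, 192, 163 and 272 in KO (log2 5.45, SE 0.55, adjusted p = 5.75e-07), with the match 21 bases upstream of the centre. The control level rested on 21 counts, so the size of the fold is imprecise. The region also held a let-7 match. In Gstm3, a glutathione transferase with close paralogs, a 7mer-m8 region (chr3:107964206-107964275) stood at 38.6, 29.0, 22.3, 16.3 and 13.2 in controls and 265, 171, 150 and 262 in KO (log2 3.44, SE 0.29, adjusted p = 1.2e-07). Both genes had every KO library far above every control. Impact, an inhibitor of the kinase GCN2, rose from 8.64 ± 3.27 to 155 ± 116 (log2 3.91), and stood 3.39 times higher in KO 4 than in KO 1 to 3 on average. Without KO replicate 4 it was still called.

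The other rises chosen by the same rule were smaller in level. Ccdc120 rose from 8.77 ± 4.03 to 61.6 ± 7.25 (log2 2.91), and the pseudogene Gm5530 from 12.9 ± 3.60 to 85.4 ± 28.3 (log2 2.79). Enc1, an actin-associated protein, rose from 1.80 ± 1.56 to 39.9 ± 15.3 (log2 3.88), and Pls1, a plastin of epithelial brush borders, from 0.637 ± 0.624 to 18.5 ± 6.44 (log2 4.67). The controls held 3 counts in all for Pls1 and 9 for Enc1, so these folds are imprecise, and neither reached the level of the count filter in any control library: both were tested because KO was high, which fixed the direction. Among the 8 rises Gstm3 and Gm5530 alone reached that level in 4 or more control libraries. The match lay 44.5 bases downstream of the centre in Gm5530, 36 in Enc1 and 24 in Impact. A region on chromosome 18 without a gene name (chr18:65246489-65246558) stood at 17.2, 8.92, 23.2, 9.46 and 14.6 in controls and 128, 85.3, 111 and 54.0 in KO (log2 2.86, SE 0.32, adjusted p = 2.2e-06). It held an 8mer and lay upstream of the Mir122 hairpin of the same strand.

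In 8 tested miR-30 regions the controls held no count at all, and in 3 more they held under 3; all 11 were called higher, which the filter on counts had fixed in advance. The 4 highest of those under 3 control counts were in Kcnd2, a potassium channel, Fbxl20, an F-box protein, Pcdh9, a protocadherin, and Gpm6b, a membrane proteolipid whose region overlaps another gene. The Kcnd2 region stood at 30.1, 33.4, 43.4 and 212 scaled CPM in KO 1 to 4, at least 109-fold above the floor of 3 counts over the control group. For Fbxl20, Pcdh9 and Gpm6b the level in KO was at least 66.6-fold, 65.7-fold and 65.0-fold higher than that floor. In all 4 genes KO 4 was the highest, by 4.69 to 5.95 times the average of KO 1 to 3, as the neuronal markers were highest in that library. Their part in these rises was not tested. The neuronal marker genes themselves held 6 miR-30 regions, none with enough counts to be tested.

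The hairpins that make the family were also among the AGO-bound regions, though they are no target sites. The region over Mir30a (chr1:23272252-23272321) stood at 6277, 7260, 2522, 3413 and 3445 scaled CPM in controls and 3024, 4330, 5340 and 8633 in KO. The groups overlapped over most of their range, and the highest and lowest controls differed more than the means did (4583 ± 2058 and 5332 ± 2396; log2 0.25, SE 0.43, adjusted p = 0.67). Mir30d stood at 1777 ± 916 and 1740 ± 748, Mir30e, which the files name by its host gene Nfyc, at 2186 ± 888 and 2858 ± 1259, Mir30c-2 at 244 ± 86.7 and 287 ± 143, and Mir30c-1, also named Nfyc there, at 231 ± 83.3 and 276 ± 145. None passed (adjusted p from 0.55 to 0.88), and in all but Mir30e the sign of the fold changed under at least 1 alternative. KO 4 had 1.94 to 2.26 times the average of KO 1 to 3 at each. The mature miR-30c-5p is the same from both of its loci, so its reads cannot be placed between them. Thus neither a rise nor a fall of the family's AGO-bound hairpins was detectable with these libraries.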

How the data were processed

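Group, sex and replicate number were taken from the labels. The members, gene lists and tests were chosen with earlier results of these data known. Bowtie2 and mm10 are named per the submitters' processing notes; peak caller, duplicate handling and counting rule: not given in the sources used here. Values per library are read counts per region that the authors deposited without normalization, whole numbers per the file headers. The authors' deposited log2 fold is control over KO; its sign, turned, was the same as the fitted one in all 374 called members. The phyloP score at each match was used as deposited by the authors.

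Each region was counted once, over 143524 rows that list its matches. The test was that of edgeR 4.0.16 (R 4.3.3), after filterByExpr, with TMM factors, glmQLFit and glmQLFTest, genotype and sex as terms and all 9 libraries, with Benjamini-Hochberg adjustment at 0.05. Every adjusted p is from this test or, where a library or setting is named, from the same test so changed. The test was tried on simulated counts first. Scaled CPM are counts over the TMM-scaled library total; a floor of 3 counts is 2.58 to 6.69 scaled CPM in 1 library, 0.729 over the controls and 0.788 over the KO group, for counting error only, since amplified reads are not independent molecules. Replicates differed by more than sampling noise (2.00 to 6.42 as chi-square over its degrees of freedom). Same-numbered libraries did not deviate together, with correlations from -0.089 to 0.001. The deviations were taken from the group mean with sex left in, so these values cannot exclude a pairing.

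Regions were named by rule: the 10 highest in controls; the 8 falls and 8 rises with the smallest p and at least 3 counts in each group; the 4 highest in KO with fewer than 3 control counts (no fall had fewer than 3 KO counts); the 8 strongest 8mers in 3' UTRs; the most covered tested region of each reported target; and up to 4 in marker genes, the members there being 9 in hepatocyte, 6 in neuron, 2 in endothelium, 2 in stellate, 1 in Kupffer and 0 in cholangiocyte and red cell genes. One region that this rule names is not reported here. Alternatives were other scalings, DESeq2 1.42.0, other filters, no sex term, a replicate block and each library left out. Mature sequences and the check of gene positions came from RefSeq (GRCm38.p6). The 31 distinct gene names of month form were not used as names. No genome was used, so no sequence of a single target site is shown.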

Additional observations from a re-analysis of the deposited data

Results flagged for a closer look

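Of 146 groups of 4 or 5 libraries examined, 16 held 1 library far from the rest of its group by Dixon's criterion, where chance alone gives about 1 in 20. Control replicate 5 was low in the share of counts in miR-30 regions (5.92%), in that share over regions without a miR-122 match (7.79%), in the share of 8mer regions (2.74%) and in that of 3' UTR regions (2.93%). The same library was high in mt-Nd4 (1131 scaled CPM) and Igf2 (19.0). Control replicate 2 was high in Psen2 (1213) and Abat (477), and control replicate 1 low in Fndc3b (1.43). KO replicate 4 was high in Kcnd2 (212), Fbxl20 (118), Pcdh9 (127), Gpm6b (120) and Impact (328). KO replicate 2 was high in Me1 (28.8) and in the coding region of Tnrc6a (26.9).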

How the results depend on the processing

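Relative to 82 lower, 292 higher and a median log2 fold of 0.36 for miR-30 regions, factors from regions without a miR-122 match gave 171 higher and a median of 0.14, upper quartile factors 52 lower, 463 higher and 0.60, and no filter on low counts 143 lower and 446 higher (10470 and 11273 over all regions), with a median of 0.33 under a background of 0.41. The labels do not say whether replicate numbers pair these mice. With the numbers as a block, 38 were lower and 87 higher, with a median of 0.20. There 1622 of all regions were higher, and 84 of the 292 rises and 32 of the 82 falls were kept. In that block fit Rgn (-0.044), Sec23a (-0.17), Ddx5 (-0.023), Nedd4 (-0.078), the first Tnrc6a region (-0.099), Mir30d (-0.013) and Psen2 (0.13) changed sign. Of 65 single regions refitted, 13 lost their call there. They were in Cyp2c70, Lifr, Smad1, Skp2, Pik3cd, Acaca, Insig1, Twf1, Galnt1, Ube2j1, Tnrc6c, Nfib and the called region of Tnrc6a. The other settings (library totals, DESeq2, a mean of 10 CPM, no sex term) stayed within 1.5 times of these counts. With 1 library left out, lower calls ran from 52 to 96, higher calls from 176 to 396, those over all regions from 3265 to 5865 and 1940 to 3834, the median from 0.30 to 0.48 and the ratio of shares from 1.23 to 1.39; that ratio was 1.00 over regions without a miR-122 match. Over 1091 refits of 65 single regions, 958 kept direction and call, 68 lost and 11 gained a call, and 54 changed sign, all in regions that were not called. These signs turned with factors from regions without a miR-122 match in Rgn (-0.16), Sec23a (-0.13), Ddx5 (-0.12), Nedd4 (-0.054), Abat (-0.20), Tnrc6a (-0.17), the chromosome 6 RNA (-0.040), Mir30d (-0.041), Mir30c-2 (-0.12) and Mir30c-1 (-0.14), and with upper quartile factors in Psen2 (0.10) and Mttp (0.039). Without a filter they turned in Rgn (-0.034), Abat (-0.077), Tnrc6a (-0.062), Mir30c-2 (-0.021) and Mir30c-1 (-0.031), and without the sex term in Rgn (-0.28), Sec23a (-0.098), Abat (-0.057) and Mir30d (-0.030). With 1 library left out, the log2 fold ran from -0.035 to 0.22 in Rgn, from -0.033 to 0.26 in Sec23a, from -0.029 to 0.20 in Ddx5, from -0.087 to 0.19 in Abat, from -0.057 to 0.16 in Tnrc6a and from -0.24 to 0.076 in Psen2. In the hairpins it ran from -0.056 to 0.86 in Mir30a, from -0.31 to 0.56 in Mir30c-1, from -0.24 to 0.56 in Mir30c-2 and from -0.23 to 0.89 in Mir30d. The cause of these changes was not tested. Depth limits what was seen: 3266 of 4697 regions had too few counts for the test, and 4 to 5 libraries a group leave log2 folds of the best covered regions with an SE near 0.25.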
